A study of Mus musculus with 6 samples.

Results

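The mitochondrial genome is a small circular DNA present in many copies per cell, and its CpG cytosines were measured here beside those of the nucleus. The assay was bisulfite sequencing of whole genomes: bisulfite turns a cytosine without a methyl group into a base read as T, and a methylated one is still read as C. Every row of the deposited table that lay on chromosome M of the mouse build mm9 was taken, which gave 510 of the 10025464 cytosines of the table. The 510 rows comprised 270 cytosines on the + strand and 240 on the - strand, at 271 CpGs between positions 134 and 16283, and 239 of these CpGs had both strands.

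The germ cells came from male pups at postnatal day 2.5 on a mixed strain background, born to crosses between Tex15+/- parents. They were flow-sorted by green fluorescence from Oct4-GFP, a marker of germ cells, and DNA was taken from individual animals. There were 2 pups of each genotype: Tex15KO (Tex15-/-, pups 3 and 16), Tex15HT (Tex15+/-, pups 7 and 18) and Tex15WT (Tex15+/+, pups 8 and 9). Tex15 is a germ cell gene known for its part in PIWI-directed methylation of retrotransposons in the nucleus of male germ cells.

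Mitochondrial DNA is packed into nucleoids and not into the histone-based chromatin in which nuclear CpG methylation is laid down, and it is commonly described as having little or no CpG methylation. Copies of mitochondrial sequence that were inserted into nuclear chromosomes in the past, known as nuclear mitochondrial segments, carry the same bases and can share its sequencing reads. In the RefSeq table of the assembly GRCm38.p6, the mitochondrial genome holds 37 genes, of which 13 encode proteins of the respiratory chain, 22 encode tRNAs and 2 encode the ribosomal RNAs mt-Rnr1 and mt-Rnr2. Their order starts with TrnF, mt-Rnr1, TrnV, mt-Rnr2, TrnL1 and ND1 and ends with ND6, TrnE, CYTB, TrnT and TrnP. The noncoding control region, where replication starts, lies between TrnP and TrnF. Positions given here are those of the mm9 file, and single cytosines were not assigned to genes because that table belongs to another build.

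Depth was high on this molecule. The 510 cytosines received between 36605 and 113231 calls per sample, a call being 1 reading of 1 cytosine, of the 27495658 to 52935635 calls per sample in the whole table. The median mitochondrial cytosine had 76 calls in Tex15KO 3 and 199 in Tex15KO 16, 159 in Tex15HT 7 and 161 in Tex15HT 18, and 158 in Tex15WT 8 and 262.5 in Tex15WT 9. Tex15KO 3 stood apart from the other libraries over the table as a whole, with 74.4% of all cytosines at 0 calls, against 1.71 to 10.2% elsewhere. On the mitochondrial genome it was covered nearly throughout, with 6 of 510 cytosines at 0 calls, against 0 to 5 in the other samples. Results that rest on this library are given with and without it.

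Few calls at mitochondrial CpGs were C in any genotype. The methylation level, the C calls in percent of all calls, was 1.82% in Tex15KO 3 (95% Wilson interval 1.69 to 1.96%) and 0.753% in Tex15KO 16 (0.698 to 0.813%). It was 0.826% in Tex15HT 7 (0.761 to 0.896%) and 0.656% in Tex15HT 18 (0.599 to 0.718%). In the wild type it was 0.783% in Tex15WT 8 (0.720 to 0.851%) and 0.724% in Tex15WT 9 (0.676 to 0.775%). Tex15KO 3 thus lay above all other libraries, and Tex15KO 16 lay within the range of the other genotypes. In the nucleus of the same samples, 68.5% of calls were C in Tex15KO 3 and 65.8% in Tex15KO 16, against 64.3 to 65.5% in the 4 other pups. The intervals cover counting error only. Whether reads copied by PCR from 1 molecule were removed is not stated in the sources used here.

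By genotype, the mitochondrial level was 1.29% ± 0.756 in Tex15KO, 0.741% ± 0.120 in Tex15HT and 0.754% ± 0.0415 in Tex15WT (SD, n = 2 each). Tex15KO exceeded Tex15WT by 0.534 points (exact permutation test over samples, two-sided, p = 0.667) and Tex15HT by 0.547 points (exact permutation p = 0.667). With 2 pups against 2 this test cannot go below 0.333. Tex15KO exceeded the 4 pups of both other genotypes by 0.541 points (exact permutation p = 0.2, smallest possible 0.0667). These differences rested on Tex15KO 3, and without it they were -0.000238, 0.0126 and 0.00617 points. Tex15HT differed from Tex15WT by -0.0128 points (exact permutation p = 1), which is less than the spread between pups of a genotype.

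**Figure D1:**
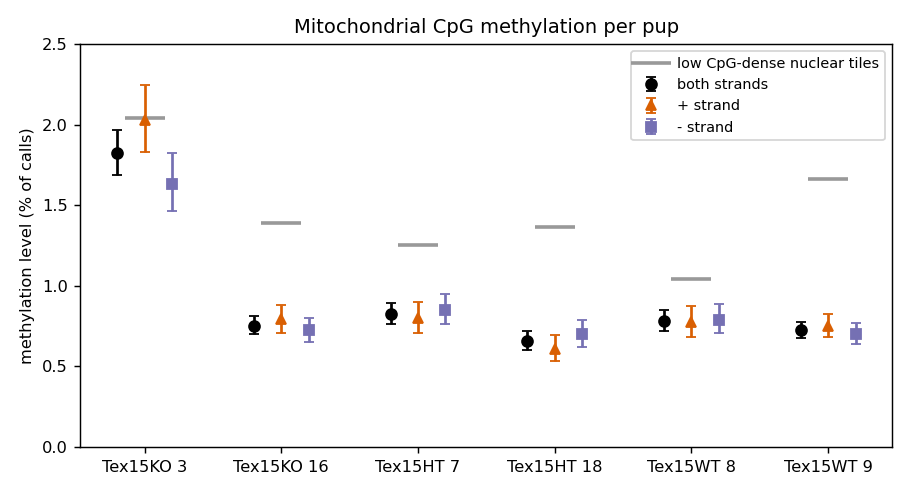
Mitochondrial methylation level per pup in percent of calls, over both strands (circles), the + strand (triangles) and the - strand (squares), with 95% Wilson intervals. Grey bars give the level of CpG-dense nuclear tiles that were under 5% in Tex15WT 8; Tex15KO 3 lies at 1.82% and the other 5 pups lie between 0.656 and 0.826%.

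The strands of the molecule differ in base composition and were read at different depth, so they were set apart. The median + cytosine had fewer calls than the median - cytosine in all 6 samples, for example 174.5 against 222 in Tex15KO 16. The stretch of low coverage described below held 50 rows on the + strand and 20 on the - strand, and its part in this was not tested. The level on the + strand was 2.03% in Tex15KO 3 and 0.791% in Tex15KO 16, 0.799% in Tex15HT 7 and 0.608% in Tex15HT 18, and 0.774% in Tex15WT 8 and 0.750% in Tex15WT 9. On the - strand it was 1.63% in Tex15KO 3 and 0.723% in Tex15KO 16, 0.849% in Tex15HT 7 and 0.698% in Tex15HT 18, and 0.790% in Tex15WT 8 and 0.701% in Tex15WT 9. Neither strand was consistently higher: the + strand exceeded the - strand in 3 samples and fell below it in 3, by 0.0596 points on average (exact sign-flip permutation test over 6 pairs, two-sided, p = 0.625). Without Tex15KO 3 that average was -0.00786 points.

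The strand difference itself was 0.397 points in Tex15KO 3 and 0.0675 in Tex15KO 16, against -0.0498 in Tex15HT 7, -0.0897 in Tex15HT 18, -0.0160 in Tex15WT 8 and 0.0487 in Tex15WT 9. It was 0.259 points larger in Tex15KO than in the other genotypes (exact permutation p = 0.0667, the smallest that 2 against 4 pups allow), and 0.0942 points larger without Tex15KO 3.

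A share of the C calls in any bisulfite library comes from unmethylated cytosines that were not converted. Nuclear sequence with little methylation gives a level to read the mitochondrial one against. The median 1 kb nuclear tile with 20 or more CpGs lay at 0% in Tex15KO 3 and 1.30% in Tex15KO 16, at 1.16% in Tex15HT 7 and 1.25% in Tex15HT 18, and at 1.28% in Tex15WT 8 and 1.41% in Tex15WT 9. The mitochondrial level lay below that median in 5 of 6 samples and above it in Tex15KO 3, by -0.140 points on average (exact sign-flip permutation test, two-sided, p = 0.812), and by -0.532 points without Tex15KO 3. Against tiles with 30 or more CpGs the average turned to 0.263 points. The mitochondrial level then lay above the nuclear median in Tex15KO 3, where that median was 0%, and in Tex15HT 7, where it was 0.752%. In Tex15KO 16, Tex15HT 18, Tex15WT 8 and Tex15WT 9 it still lay below medians of 0.758 to 0.840%. An average without Tex15KO 3 was not taken for these tiles. A second set held the 16493 tiles with 20 or more CpGs that were under 5% in Tex15WT 8, with their calls summed. It gave 2.04% in Tex15KO 3 and 1.39% in Tex15KO 16, 1.25% in Tex15HT 7, 1.37% in Tex15HT 18 and 1.66% in Tex15WT 9, with 1.04% in Tex15WT 8, where the tiles were chosen. The mitochondrial level was lower than this nuclear level in all 6 samples. In Tex15KO 3 both were the highest of the 6. A lambda phage DNA spike was added at 0.5% of the input per the labels, but its calls were not used here.

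Along the molecule, the mitochondrial genome was divided into 17 windows of 1 kb, and 12 of them had 1000 or more calls in each sample. Over those 12, the level ran from 0.733 to 3.40% in Tex15KO 3 (median 1.75%) and from 0.513 to 0.985% in Tex15KO 16 (median 0.702%). It ran from 0.648 to 1.10% in Tex15HT 7, from 0.423 to 0.803% in Tex15HT 18, from 0.530 to 1.01% in Tex15WT 8 and from 0.546 to 0.855% in Tex15WT 9. Tex15KO 3 was the highest in 11 of the 12 windows. The exception was the window from 5001 to 6000, with 0.733% in Tex15KO 3 and 0.667% in Tex15KO 16, 0.690% in Tex15HT 7 and 0.657% in Tex15HT 18, and 0.530% in Tex15WT 8 and 0.842% in Tex15WT 9.

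That window also had the lowest mean over the 6 samples, 0.686%. Without Tex15KO 3, its mean was 0.677%, and the lowest was that of the window from 6001 to 7000, at 0.640%. Over all 6 samples, the next lowest were the windows from 15001 to 16000 (0.714%) and from 16001 to the end of the numbering (0.724%). They hold the last positions of the numbering, and without Tex15KO 3 their means were 0.676 and 0.795%. There the level was 0.902 and 0.370% in Tex15KO 3, 0.740 and 0.756% in Tex15KO 16, 0.780 and 0.432% in Tex15HT 7, 0.534 and 1.34% in Tex15HT 18, 0.582 and 0.688% in Tex15WT 8, and 0.742 and 0.762% in Tex15WT 9. Tex15KO 3 was the highest sample in the first of these windows and the lowest in the second, where it had 270 calls.

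The highest means lay in poorly covered windows. The window from 10001 to 11000 averaged 2.29%, with 8.56% of 257 calls in Tex15KO 3 and 0.439% of 456 calls in Tex15KO 16, against 0.587 to 1.80% in the 4 other pups. The window from 7001 to 8000 averaged 1.71%, with 2.74% in Tex15KO 3 and 1.28% in Tex15KO 16, 1.29 and 1.27% in Tex15HT 7 and 18, and 2.31 and 1.37% in Tex15WT 8 and 9. In the window from 8001 to 9000 the average was 1.57% on 36 to 63 calls per sample, so that each sample's value rests on 0 to 2 C calls.

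**Figure D2:**
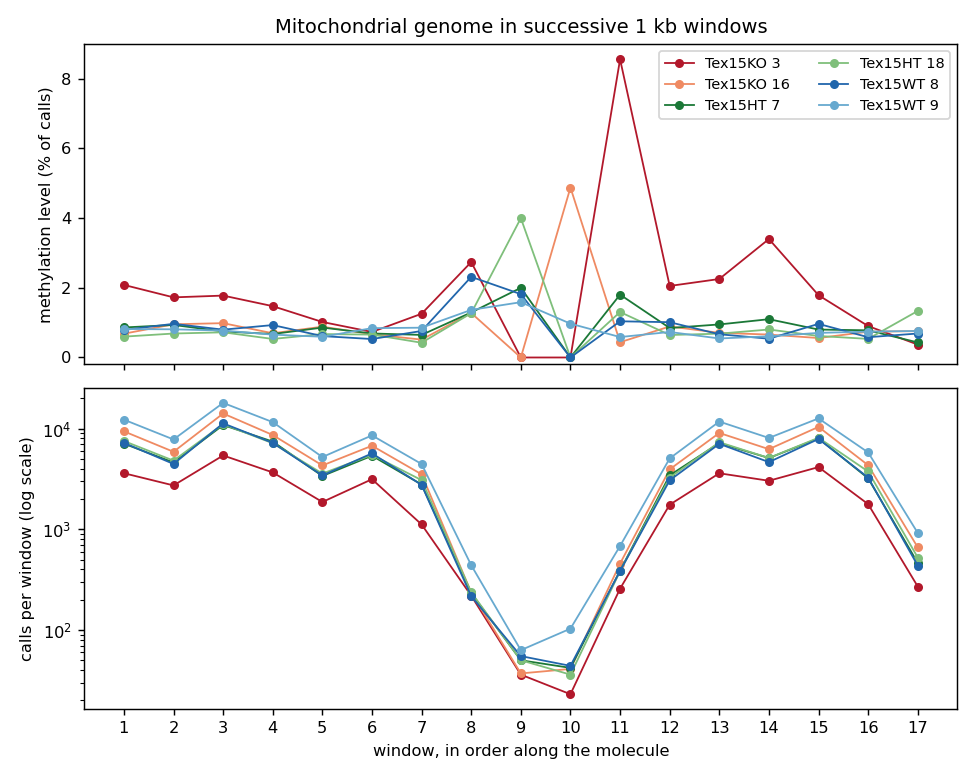
Methylation level in percent of calls (top) and calls on a log axis (bottom) in the 17 successive 1 kb windows of the mitochondrial genome, 1 line per pup. Windows 8 to 11 fall to between 23 and 682 calls, and their levels scatter; in the 12 windows with 1000 or more calls Tex15KO 3 (dark red) is the highest in 11.

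The windows were tested with edgeR's quasi-likelihood test, fitted over 330110 tiles of the whole table with Benjamini-Hochberg adjustment over all of them. In Tex15KO against Tex15WT, 0 of the 17 mitochondrial windows passed an adjusted p of 0.05, where 0.00969% of all tiles did. The lowest mitochondrial edgeR adjusted p was 0.363, and limma on log2 ratios also called 0 (lowest adjusted p 0.649), where it called 0.0966% of all tiles. At an unadjusted p under 0.05, edgeR had 3 windows higher (17.6%) and 0 lower, where 1.45% of all tiles were higher and 1.26% lower. Limma had 0 in either direction at that limit, where 5.72% of all tiles were higher and 2.8% lower. The median log2 odds ratio was 0.54 over the 17 windows and 0.60 over all tiles.

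In Tex15KO against Tex15HT, edgeR called 0 windows, against 0.00576% of all tiles, and limma 0, against 0.0627%. Unadjusted, edgeR had 4 windows higher and 0 lower, where 0.939% of all tiles were higher and 1.27% lower, and limma had 0, where 3.45 and 2.88% were. In Tex15KO against both other genotypes, edgeR called 0, against 0.0385% of all tiles, and limma 0, against 0.277%. Unadjusted, edgeR had 5 windows higher and 0 lower, where 1.4% of all tiles were higher and 1.73% lower. Limma had 0, where 5.88 and 3.69% were. The median log2 odds ratio of edgeR over the 17 windows was 0.66 against Tex15HT and 0.57 against both. Without Tex15KO 3 it was -0.0134 and -0.0136. Over all tiles it was 0.37 and 0.47, and -0.0034 and 0.059 without Tex15KO 3. For Tex15HT against Tex15WT both tools called 0, where edgeR called 0.00121% of all tiles and limma 0%. Both also had 0 windows unadjusted, where edgeR had 0.35% of all tiles higher and 0.188% lower, and limma 1.12 and 0.442%.

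With 30 or more calls required in each sample, 34801 tiles were tested. EdgeR then called the window from 13001 to 14000 higher in Tex15KO than in Tex15WT (edgeR adjusted p = 0.0494), the only tile of the table called higher (0.00287%). The level there was 3.40% in Tex15KO 3 and 0.657% in Tex15KO 16, 1.10% in Tex15HT 7 and 0.803% in Tex15HT 18, and 0.539% in Tex15WT 8 and 0.608% in Tex15WT 9. Against both other genotypes it called the window from 2001 to 3000 (edgeR adjusted p = 0.0195), where 0.0115% of all tiles were called higher. In that window the level was 1.78% in Tex15KO 3 and 0.985% in Tex15KO 16. It was 0.748% in Tex15HT 7, 0.723% in Tex15HT 18, 0.799% in Tex15WT 8 and 0.773% in Tex15WT 9, so both Tex15KO pups lay above all others. Against Tex15HT it called 0 windows, where 0.0172% of all tiles were called higher.

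Wider tiles gave another answer, and Tex15KO 3 was the highest sample in each mitochondrial tile called. In 5 kb tiles, edgeR called 2 of 4 mitochondrial tiles higher in Tex15KO than in Tex15WT, and they were the only 2 tiles called higher among 366287 tested (0.000546%). The same 2 were called against Tex15HT, where 0.00218% of all tiles were called higher, and against both other genotypes, where 0.00191% were. From 10001 to 15000 the level was 2.47% in Tex15KO 3 and 0.666% in Tex15KO 16, 0.931% in Tex15HT 7 and 0.692% in Tex15HT 18, and 0.795% in Tex15WT 8 and 0.637% in Tex15WT 9 (edgeR adjusted p = 2.61e-12). From 1 to 5000 it was 1.69% in Tex15KO 3 and 0.844% in Tex15KO 16, 0.793% in Tex15HT 7 and 0.645% in Tex15HT 18, and 0.829% in Tex15WT 8 and 0.746% in Tex15WT 9 (edgeR adjusted p = 1.99e-05). In the tile from 10001, Tex15KO 16 lay within the range of the other genotypes. In the tile from 1, it lay above all 4, by less than the spread among them. The fit uses 1 dispersion for all tiles, so the distance between both Tex15KO pups at a tile does not enter its p. Leaving out Tex15KO 16 leaves Tex15KO 3 alone in its genotype, so that the spread comes from the other genotypes only and the lone library is assumed to vary like them. The common dispersion was then 0.111, against 0.347 with all 6 samples. In that fit edgeR called 5 of the 17 windows of 1 kb higher than in Tex15WT (1.76% of all tiles), 6 higher than in Tex15HT (1.59%) and 6 higher than in both (2.31%). Without Tex15KO 3, where the dispersion was 0.11, it called 0 in these 3 comparisons, against 0.115, 0.0924 and 0.195% of all tiles. That fit leaves Tex15KO 16 alone in its genotype, under the same assumption. With so few tiles called, 0 of 17 windows does not set the mitochondrial genome apart.

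Single cytosines showed how the C calls of Tex15KO 3 were placed. Among the 416 cytosines with 30 or more calls in every sample, 42 (10.1%) were at 5% or more in Tex15KO 3 and 0 in Tex15KO 16, against 1 in Tex15WT 8 and 0 in the 3 remaining pups. The highest cytosine reached 29.5% in Tex15KO 3 and 2.99% in Tex15KO 16, 3.61% in Tex15HT 7 and 3.54% in Tex15HT 18, and 5.19% in Tex15WT 8 and 3.75% in Tex15WT 9. At the other end, 57.5% of the 416 cytosines had no C call in Tex15KO 3 and 24.8% in Tex15KO 16, 30.5% in Tex15HT 7 and 38.7% in Tex15HT 18, and 34.4% in Tex15WT 8 and 19.95% in Tex15WT 9. If every cytosine of a sample had that sample's mean level and its own depth, these shares would be 23.7% in Tex15KO 3, 22.4% in Tex15KO 16, 26.8% in Tex15HT 7, 34.4% in Tex15HT 18, 29.7% in Tex15WT 8 and 15.6% in Tex15WT 9. Tex15KO 3 was far from its value, and the other 5 libraries were within 5 points of theirs.

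The scatter between cytosines, as the mean squared deviation over that expected from counting alone, was 6.23 in Tex15KO 3 and 1.15 in Tex15KO 16, against 1.15 to 1.28 in the 4 other pups. A value near 1 means that cytosines vary no more than counting does. The 21 cytosines with the most C calls held 44.2% of the C calls in Tex15KO 3 and 15.99% in Tex15KO 16, against 15.3 to 18.5% in the 4 other pups. With its own 21 left out, the level was 1.10% in Tex15KO 3 and 0.669% in Tex15KO 16, 0.718% in Tex15HT 7 and 0.563% in Tex15HT 18, and 0.666% in Tex15WT 8 and 0.649% in Tex15WT 9. The median cytosine was at 0% in Tex15KO 3 and at 0.573% in Tex15KO 16, against 0.580 to 0.697% in the 4 other pups. By the median, Tex15KO lay below Tex15WT by -0.359 points (exact permutation p = 0.333, the smallest possible), the opposite direction from the mean. The size of this difference rested on Tex15KO 3: Tex15KO 16 alone was at 0.573%, against a mean of 0.645% in Tex15WT. The 416 cytosines had a median of 82 calls in Tex15KO 3, against 166 to 272 in the other libraries. The part of depth in its median was not tested.

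**Figure D3:**
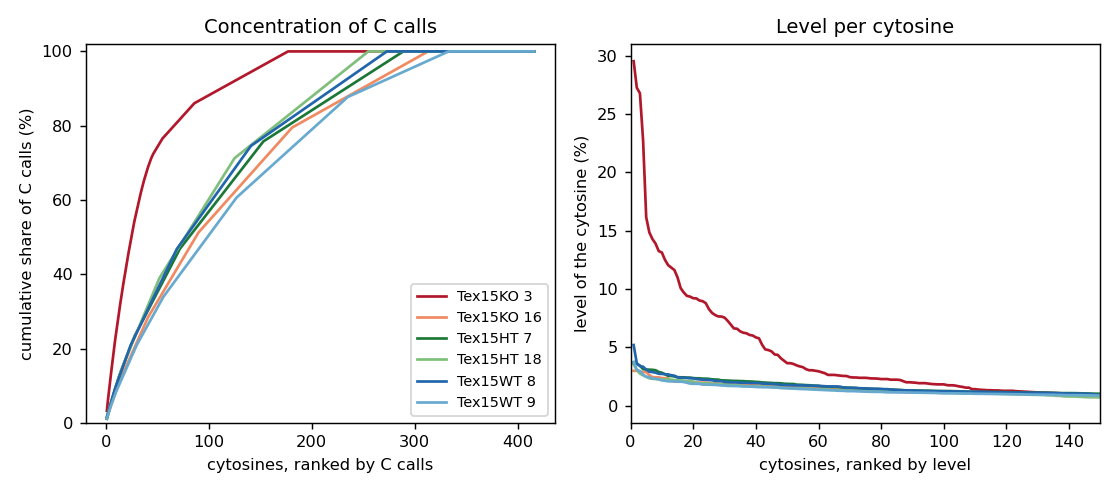
Left, cumulative share of the C calls over the 416 mitochondrial cytosines with 30 or more calls in every sample, ranked by C calls; right, level of each cytosine in percent, ranked, for the first 150 ranks. The line of Tex15KO 3 rises fastest on the left and starts at 29.5% on the right, where the other 5 start at 2.99 to 5.19%.

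The high cytosines of Tex15KO 3 were mostly high on 1 strand of the CpG only. All 42 had a measured partner on the other strand, and 4 of the partners (9.52%) were at 5% or more, which is near the 10.1% of all 416 cytosines. Together the 42 were at 9.70% and their partners at 1.60%. On the same strand, 20 of the 42 (47.6%) had another cytosine at 5% or more within 75 bases, against 77 of the 374 others (20.6%). These are counts in 1 library over cytosines that share reads, so no test was made. Tex15KO 3 is also the library in which few places of the nuclear genome were read, each many times, and its part in this pattern was not tested.

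By the fixed rule, the 10 mitochondrial cytosines with the highest mean level over the 6 samples, among the 442 with 10 or more calls in each, are named here. At position 229 on the + strand, 13 of 44 calls were C in Tex15KO 3 and 1 of 206 in Tex15KO 16, against 6 of 175 in Tex15HT 7, 2 of 189 in Tex15HT 18, 1 of 184 in Tex15WT 8 and 2 of 289 in Tex15WT 9. Position 14360 (+) had 15 of 56 in Tex15KO 3 and 1 of 172 in Tex15KO 16, against 0 of 132, 2 of 140, 3 of 125 and 1 of 212 in the others, in the same sample order. Position 12582 (-) had 15 of 55 in Tex15KO 3 and 3 of 269 in Tex15KO 16, with at most 2 C calls in each of the others. A mean over 6 samples favours cytosines that are high in 1 of them, so the rule itself brought in sites high in Tex15KO 3, and their levels there are given as a description.

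Of the remaining 7, chosen by the same mean, 6 also had their highest level in Tex15KO 3. It was 22.8% at 10999 (-), 13.3% at 14393 (+), 16.2% at 3591 (+), 14.3% at 2262 (+), 14.9% at 361 (+) and 13.9% at 14979 (-). Tex15KO 16 lay between 0 and 0.581% at these 6, and the highest of the 4 other pups was 3.39%, in Tex15WT 8 at 14393. The exception was 6569 (+), a thinly read cytosine with 0 of 10 calls in Tex15KO 3 and 1 of 34 in Tex15KO 16, against 1 of 25 in Tex15HT 7, 0 of 34 in Tex15HT 18, 3 of 29 in Tex15WT 8 and 0 of 60 in Tex15WT 9.

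EdgeR's test over all 7197 cytosines of the table with 10 or more calls in each sample called 0 of the 442 mitochondrial ones in Tex15KO against Tex15WT, where 0.0278% of all cytosines were called. Unadjusted, 18 were higher (4.07%) and 5 lower (1.13%) at a p under 0.05, where 1.08% of all cytosines were higher and 12.9% lower. Limma called 0 of the 442 and 0% of all, with 27 higher and 3 lower unadjusted, where 2.95% of all were higher and 15.3% lower. In edgeR, the median log2 odds ratio was 0.25 over the 442 and -0.18 over all 7197. Over the 442 it was 0.013 without Tex15KO 3 and -1.46 without Tex15KO 16, so its sign depended on the pup kept. Over all 7197 it was -0.23 and -0.24 in these fits, each with 1 Tex15KO pup. By the unadjusted counts with all 6 samples, more mitochondrial cytosines were higher than lower. Over the 7197 more were lower than higher, and this difference was not tested. Mitochondrial levels lie near 0 and have little room to fall, and the part of this in the difference was not tested either.

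In Tex15KO against Tex15HT edgeR called 0 mitochondrial cytosines, where 0.0417% of all were called. Unadjusted, 15 were higher and 7 lower, where 1.97% of all were higher and 10.8% lower. Limma called 0, with 22 higher and 1 lower unadjusted, where 2.33 and 12.8% of all were. In Tex15KO against both other genotypes edgeR called 0, where 2.95% of all were called. Unadjusted, 24 were higher and 5 lower, where 1.74% of all were higher and 13.9% lower. Limma called 0, where it called 2.1% of all, with 26 higher and 2 lower unadjusted, where 3.42 and 16.3% of all were. The median log2 odds ratio of edgeR over the 442 was 0.14 against Tex15HT and 0.22 against both. It was -0.018 and 0.094 without Tex15KO 3, and -0.60 and -1.24 without Tex15KO 16. In Tex15HT against Tex15WT both tools called 0, and 0% of all cytosines. Unadjusted, edgeR had 9 higher and 12 lower, where 0.306 and 1.89% of all were, and limma had 20 and 12, where 1.18 and 1.49% of all were.

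Without Tex15KO 16, where Tex15KO 3 is again the only library of its genotype and the spread comes from the others, the common dispersion was 0.00581, against 0.0753 with all 6 samples. EdgeR then called 34 mitochondrial cytosines higher against Tex15WT (4.28% of all cytosines were), 31 against Tex15HT (4.27%) and 37 against both (5.47%). Without Tex15KO 3, where the dispersion was 0.00579, it called 0 in each, against 6.89, 5.64 and 7.45% of all cytosines in either direction.

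Both Tex15KO pups lay above all 4 others at 24 of the 442 cytosines (5.43%) and below all 4 at 20 (4.52%). Over the 7197 cytosines these shares were 7.84% and 19.8%. Of the 24, the largest excess over Tex15WT was at 12582 (-), with 27.3% in Tex15KO 3 and 1.12% in Tex15KO 16, against 0.316 to 1.09% in the others (edgeR adjusted p = 0.287). The next was 11414 (+), with 11.8% in Tex15KO 3 and 1.86% in Tex15KO 16, against 0 to 0.645% (edgeR adjusted p = 0.197). The largest decreases were at 327 (+), with 0% in both Tex15KO pups against 0.592 to 1.78% (edgeR adjusted p = 0.181), and at 6132 (-), with 0% in both against 0.662 to 2.30% (edgeR adjusted p = 0.272). These 4 were not called and are given as the extremes of the list.

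Over the 416 cytosines, Pearson's r of the levels between any pair of samples ran from -0.111, for Tex15KO 3 with Tex15KO 16, to 0.143, for Tex15KO 3 with Tex15HT 7. These are correlations across cytosines of 1 molecule, which share reads and libraries, and are given as a description. With the scatter in 5 of the 6 libraries close to that of counting, they cannot show whether low levels recur at the same sites.

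Coverage of the mitochondrial genome was interrupted by a long gap. The gap was defined as running from the first to the last cytosine with under 30 calls in every sample. These lay at positions 6639 and 10727, a stretch of 4089 bases, in which 64 of 70 cytosines had under 30 calls in every sample. The median cytosine inside had 3 calls in Tex15KO 3 and 4.5 in Tex15KO 16, 4.5 in Tex15HT 7 and 5 in Tex15HT 18, and 4 in Tex15WT 8 and 8 in Tex15WT 9. Outside, the median was 80 calls in Tex15KO 3 and 207 in Tex15KO 16, and between 164 and 269 in the 4 other pups. In the reference order this is the middle part of the molecule. All 32 mitochondrial CpGs with a row for only 1 strand lay in this stretch, out of its 51 CpGs, and it held 50 rows on the + strand and 20 on the - strand.

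The level of the stretch was 2.93% in Tex15KO 3 (95% Wilson interval 1.65 to 5.18%) and 0.996% in Tex15KO 16 (0.426 to 2.31%), against 0.973 to 1.56% in the 4 other pups, from 375 to 851 calls per sample. Those calls are 0.571 to 1.02% of the mitochondrial calls of a sample. Genotypes were not compared over the stretch as a whole.

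Nuclear sequence with the same arrangement of CpGs was sought, by matching the distances between mitochondrial CpGs to those on every other chromosome in either direction. Each match was scored as the CpGs in common minus those found on 1 side only, and 2 stretches scored 8 or more. On chromosome 1, all 11 CpGs of the table between 24619911 and 24620572 (mm9) matched, in reverse direction, the 11 mitochondrial CpGs between 8844 and 9505, which lie in the middle of the gap. On chromosome 2, 34 of 35 CpGs between 22443056 and 22445522 matched, in reverse, 34 of the 50 mitochondrial CpGs between 4972 and 7438, a span that runs into the gap from its left side.

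The chromosome 1 stretch had more calls than its mitochondrial match, at a level near that of mitochondrial DNA. Its level was 0.521% of 192 calls in Tex15KO 3 and 0.565% of 354 in Tex15KO 16, 0.741% of 270 in Tex15HT 7 and 0.424% of 236 in Tex15HT 18, and 1.90% of 158 in Tex15WT 8 and 0.240% of 417 in Tex15WT 9. The mitochondrial match received 39 calls in Tex15KO 3, 48 in Tex15KO 16, and 56 to 92 in the 4 other pups. Sequence 5 to 15 kb to either side of the chromosome 1 stretch was at 20.7% in Tex15KO 3 and 58.3% in Tex15KO 16, against 55.9 to 66.2% in the others. Per cytosine, the stretch had 16 calls in Tex15KO 3 and 29.5 in Tex15KO 16, against 0.989 and 4.25 in the sequence beside it.

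The strands were divided between the places. Because the match runs in reverse, the + strand of chromosome 1 corresponds to the mitochondrial - strand. On chromosome 1, 11 of the 12 rows of the stretch lay on the + strand, and on the mitochondrial genome all 11 rows of the match lay on its + strand, so the rows of the 2 places, apart from 1, belong to opposite strands of the shared sequence. How reads with more than 1 possible place were assigned is not given in the sources used here, and its part in the gap was not tested.

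The chromosome 2 stretch was partly methylated. Its level was 19.7% of 76 calls in Tex15KO 3 and 51.2% of 217 in Tex15KO 16, 45.1% of 195 in Tex15HT 7 and 51.8% of 164 in Tex15HT 18, and 41.0% of 173 in Tex15WT 8 and 35.9% of 181 in Tex15WT 9. Its depth was 1.85 calls per cytosine in Tex15KO 3 and 5.29 in Tex15KO 16, and 4 to 4.76 in the others. Sequence 5 to 15 kb to either side had 1.16 calls per cytosine in Tex15KO 3 and 3.6 in Tex15KO 16, and 1.8 to 2.72 in the others, at levels of 87.1 to 100%. The mitochondrial match had median calls of 50.5 in Tex15KO 3 and 137.5 in Tex15KO 16 and 110 to 176 in the others, at levels of 0.559 to 0.895%. With the mitochondrial positions of both matches left out, the mitochondrial level was 1.96% in Tex15KO 3 and 0.773% in Tex15KO 16, 0.840% in Tex15HT 7 and 0.669% in Tex15HT 18, and 0.811% in Tex15WT 8 and 0.704% in Tex15WT 9. The order of the 6 samples was that of the full level.

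**Figure D4:**
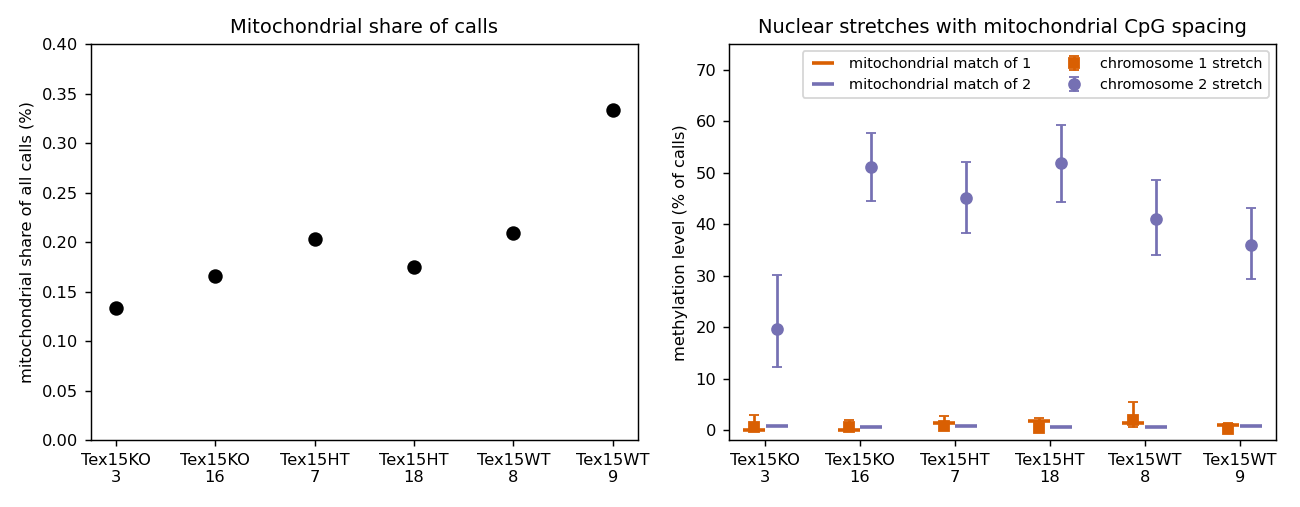
Left, calls at mitochondrial cytosines in percent of all calls of the table, 1 point per pup; right, methylation level of the nuclear stretches with mitochondrial CpG spacing on chromosomes 1 (squares) and 2 (circles), with 95% Wilson intervals, and of their mitochondrial matches (bars). The chromosome 1 stretch lies at 0.240 to 1.90%, the chromosome 2 stretch at 19.7 to 51.8%, and both Tex15KO pups have a lower mitochondrial share than the 4 other pups.

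The share of calls that fell on the mitochondrial genome reflects the number of its copies per nuclear genome together with how well its reads were recovered, which cannot be told apart. It was 0.133% in Tex15KO 3 and 0.166% in Tex15KO 16, 0.203% in Tex15HT 7 and 0.175% in Tex15HT 18, and 0.209% in Tex15WT 8 and 0.334% in Tex15WT 9. Both Tex15KO pups lay below the 4 others, Tex15KO 16 narrowly below Tex15HT 18. Per cytosine, this depth was 26.3 times that of the autosomes in Tex15KO 3 and 32.8 times in Tex15KO 16, 40.1 and 34.5 times in Tex15HT 7 and 18, and 41.3 and 66.0 times in Tex15WT 8 and 9.

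The mean share was 0.150% ± 0.0233 in Tex15KO, 0.189% ± 0.0201 in Tex15HT and 0.271% ± 0.0882 in Tex15WT (SD, n = 2 each). Tex15KO differed from Tex15WT by -0.122 points (exact permutation test, two-sided, p = 0.333, the smallest possible), from Tex15HT by -0.0393 points (exact permutation p = 0.333) and from both by -0.0805 points (exact permutation p = 0.2). Tex15HT differed from Tex15WT by -0.0824 points (exact permutation p = 0.333), which was -0.0201 without Tex15WT 9 and -0.145 without Tex15WT 8. Without Tex15WT 9, Tex15KO differed from both by -0.0459 points. The size of the difference between Tex15KO and Tex15WT depended on Tex15WT 9, and was -0.0593 points without it and -0.184 without Tex15WT 8. Against Tex15HT it was -0.0228 points without Tex15KO 3 and -0.0251 without Tex15HT 7. The 2 pups of Tex15WT differed from each other by about as much as the genotype means did.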

How the data were processed

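Bisulfite libraries of 6 pups were compared. The authors deposited 1 table of raw counts per cytosine and strand of a CpG: all calls, calls read as C and calls read as T, per the file headers. BSMAP, Bismark and methylKit and the build mm9 are named in the submitters' processing notes, without role, order or version. The sources used here do not state how PCR duplicates or reads with several places were treated, nor the conversion rate; each could move a level near 0. Coverage equalled C plus T calls at every cytosine (0 exceptions).

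A level is C calls over all calls. Differences between genotypes of per-sample values were tested with exact permutation tests. Tiles of 1 kb (3 or more CpGs and 10 or more calls in each sample; both strands in the tile of the + cytosine) and cytosines (10 or more calls) were tested with edgeR 4.0.16 (glmQLFit and glmQLFTest, R 4.3.3) on C and T counts. The model had a baseline for every sample and took in all 6; p-values were adjusted by Benjamini-Hochberg over all features of the table, at an adjusted p of 0.05. Prior degrees of freedom were infinite for tiles and 5.59 for cytosines. As an alternative, limma 3.58.1 was run on log2((C + 1)/(T + 1)). Windows were named by mean level over the samples (3 highest, 3 lowest), cytosines by mean level (10 highest) and by the largest differences without overlap. Nuclear matches were seeded by 3 successive CpG distances. Scripts were tested on simulated data. The members and lists were chosen with earlier results of these data known. No mitochondrial sequence is printed, since no genome was used.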

Additional observations from a re-analysis of the deposited data

How the results depend on the processing

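Most results kept their direction and their side of the threshold: of the alternative values, 153 did so and 9 reversed. Another 11 were counts of called windows, tiles or cytosines that rose from 0, and 1 further value passed the threshold. The 153 include level differences of Tex15KO that shrank without Tex15KO 3, to 0.0126 points (minus Tex15HT) and 0.00617 points (minus both). The level of Tex15KO minus Tex15WT, Tex15HT and both together reversed when the median over cytosines was taken (-0.359, -0.323 and -0.341 points). By that median Tex15KO 3 lay at 0%. The median was an alternative chosen after seeing the data, as were leaving out the nuclear matches and the gap, which reversed none. Tex15HT minus Tex15WT reversed on the - strand (0.0276 points). The mitochondrial level minus that of CpG-dense nuclear tiles was 0.263 points with tiles of 30 or more CpGs, where the nuclear median of Tex15KO 3 was 0%. With the calls of tiles of 20 or more CpGs summed it was -14.5 points. This passed the threshold (exact sign-flip permutation p = 0.0312, the smallest possible). The summed nuclear level ran from 13.0% in Tex15KO 3 to 16.4% in Tex15WT 9. For the tiles under 5% in Tex15WT 8 it ran from 1.04% in Tex15WT 8 to 2.04% in Tex15KO 3. Methylated tiles thus entered the sum, which is not a level of nuclear sequence with little methylation. With 30 or more calls, edgeR called 1 window in Tex15KO against Tex15WT (0.00287% of all tiles were called higher) and 1 against both other genotypes (0.0115%), from fewer tiles tested, and with 5 kb tiles it called 2 mitochondrial tiles in each comparison of Tex15KO.

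With 1 pup left out at a time, the level differed by -0.000238 to 1.07 points (Tex15KO minus Tex15WT), 0.0126 to 1.08 (minus Tex15HT), 0.00617 to 1.08 (minus both) and -0.0979 to 0.0723 (Tex15HT minus Tex15WT). The strand difference ran from 0.0942 to 0.423 points between Tex15KO and the others and from -0.00786 to 0.0894 over all samples, and the distance to nuclear tiles from -0.532 to -0.0308. Called windows numbered 0 to 5 against Tex15WT, 0 to 6 against Tex15HT and 0 to 6 against both, and called cytosines 0 to 34, 0 to 31 and 0 to 37. The highest of these level differences and counts for Tex15KO came without Tex15KO 16. The lowest level differences came without Tex15KO 3, and the counts were 0 without any pup other than Tex15KO 16. Shares of calls kept their sign throughout. No paired analysis was made: each pup has 1 genotype, and the sample names give no litter by which pups could be paired. Depth limits the stretch of low coverage, and 2 pups per genotype limit every test.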

Other observations

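Shorter nuclear matches to mitochondrial CpG spacing were also found. On chromosome 14, 7 of 7 CpGs between 37948911 and 37948967 had the spacing of those between 305 and 361, and on chromosome 19, 6 of 6 between 22990561 and 22990690 had that of those between 2520 and 2649 (mm9). A further 53 stretches shared a score of 5. No base sequence was compared, so such short matches are not shown to be mitochondrial copies.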
